A study of Mus musculus with 18 samples.

Results

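Transcripts of isolated mouse brain endothelial cells were compared between Pdcd10 knockout (KO) and control (flox) animals in hypoxia and in normoxia, and genes were sought whose genotype difference depended on oxygen. The measure was the interaction: the KO minus flox difference in hypoxia minus the KO minus flox difference in normoxia, on the log2 scale, from 1 fit of all 18 libraries. Of 17531 genes tested out of 57010 counted, 77 passed (0.439%), at a Benjamini-Hochberg adjusted p below 0.05 in edgeR's quasi-likelihood test. All 77 had a negative interaction, so that the KO minus flox difference was lower in hypoxia than in normoxia, and none passed with a positive one. At an unadjusted p below 0.05 there were 961 genes (5.48%), 624 negative and 337 positive. Of the 77 genes, 61 were assigned by hand to the cell cycle in a broad sense, 14 to other functions and 2 to no role. Roles were given only to genes that passed, so the share of such genes among all genes tested is not known.

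Every mouse was Pdcd10 fl/fl and carried the astrocyte reporter Aldh1l1-EGFP/Rpl10a. The KO animals (Pdcd10BECKO) also carried Slco1c1-iCreERT2, a Cre recombinase that tamoxifen activates and that the submitters describe as specific to brain endothelium. Mice received 50 µg of 4-hydroxy-tamoxifen into the stomach on postnatal day 1, and RNA was taken on postnatal day 57. The flox controls were littermates without Cre. Uninjected littermates with Cre are also named as controls, and the labels do not say whether any library came from them. Hypoxia was 12% oxygen for 7 days and normoxia was 21% oxygen. Each oxygen condition had 4 flox and 5 KO libraries. The labels give neither sex nor strain background, and do not say that each library is a separate animal, so p-values measure the spread between these libraries, which may be partly technical.

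Pdcd10 encodes CCM3, an adaptor protein, and its loss from endothelium causes cerebral cavernous malformations, clusters of dilated and leaky vessels. Endothelial cells of the adult brain rarely divide. A cell that does divide makes most of its mitotic proteins late in the cycle, from genes that are transcribed together: the cyclin-dependent kinase Cdk1 and its cyclins drive entry into mitosis, kinesins and their partners build the spindle, kinetochores attach chromosomes to it, and the anaphase-promoting complex lets sister chromatids part. The promoters of many of these genes hold a CCAAT box and, close to the transcription start, a cell cycle homology region (CHR), at which repressor complexes of resting cells and activator complexes of dividing cells bind.

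Promoter sequences are shown first, because many of the cell cycle genes that passed share letters there. A RefSeq table (mouse build GRCm38.p6), which covers 250 bases before to 50 bases after each start, held 59 of the 77 genes, matched by symbol; 18 had no entry. The CHR (TTTGAA, both strands) was present in 67.3% of the 49 cell cycle genes with an entry, in 1 of the 10 genes of other functions and in 14.7% of the 11699 tested genes in the table. The CCAAT box (CCAAT, both strands) was present in 77.6% of the cell cycle genes, in 4 of the 10 others and in 42.5% of the tested genes. Both motifs were chosen after the genes were seen. Since many mitotic genes hold them, these shares describe the kind of gene that passed and are no further evidence for the interaction. The 100 bases before the start are printed 5′ to 3′ in the direction of the gene for 5 cell cycle genes and, for contrast, for 3 genes of other functions, with matches to either motif on either strand in capitals.
Espl1 (chr15:102296193-102296292, plus strand): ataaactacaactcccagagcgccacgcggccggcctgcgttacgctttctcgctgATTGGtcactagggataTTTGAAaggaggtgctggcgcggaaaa
Cdc20 (chr4:118437344-118437443, minus strand): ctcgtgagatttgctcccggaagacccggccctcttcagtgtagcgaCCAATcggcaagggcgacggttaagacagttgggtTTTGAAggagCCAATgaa
Cdk1 (chr10:69352913-69353012, minus strand): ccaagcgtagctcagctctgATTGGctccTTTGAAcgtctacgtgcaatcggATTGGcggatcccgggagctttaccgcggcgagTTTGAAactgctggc
Ube2c (chr2:164769829-164769928, plus strand): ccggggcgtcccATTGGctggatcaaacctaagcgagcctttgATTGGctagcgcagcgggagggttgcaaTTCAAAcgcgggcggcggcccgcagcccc
Kif11 (chr19:37376282-37376381, plus strand): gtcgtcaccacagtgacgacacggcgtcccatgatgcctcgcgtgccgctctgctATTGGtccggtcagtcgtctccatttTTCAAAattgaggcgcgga
Klhl4 (chrX:114474233-114474332, plus strand): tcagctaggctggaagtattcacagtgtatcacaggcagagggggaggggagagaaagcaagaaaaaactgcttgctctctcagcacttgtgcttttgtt
F5 (chr1:164151735-164151834, plus strand): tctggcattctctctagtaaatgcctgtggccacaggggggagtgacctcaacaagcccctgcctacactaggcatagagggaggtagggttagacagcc
Calcrl (chr2:84425267-84425366, minus strand): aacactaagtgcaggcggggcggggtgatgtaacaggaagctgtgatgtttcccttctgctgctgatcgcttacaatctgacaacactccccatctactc

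The CHR begins 27 bases before the start in Espl1, 18 in Cdc20, 15 in Cdk1, 29 in Ube2c and 19 in Kif11, and Cdk1 holds another one 71 bases before it. None of the printed stretches of Klhl4, F5 and Calcrl holds either motif. That stretch of Tmem45a, of Tnfaip8l1 and of a window of Rhbdl2, also outside the cell cycle, holds a CCAAT box. The same stretch of many cell cycle genes holds neither motif: Bub1b, Knl1, Birc5, Knstrn, Hmgn2, Kif2c, Mxd3, Sgo1, Nusap1, Tacc3, Cenpi and Cdkn2c. Others, such as Hmmr, Aspm, Bub1 and Ccnb2, hold a CCAAT box there but no CHR. The printed cell cycle genes, which hold both, therefore do not stand for all. The shares above count the whole 300-base window. 3 other motifs were counted in the same windows. The core of the hypoxia response element (ACGTG or GCGTG, both strands) was present in 67.3% of the cell cycle genes against 64.9% of the tested genes, and the AP-1 site (TGANTCA, both strands) in 2.04% against 6.42%. The E2F site (TTCCCGC or TTGGCGC, both strands), also chosen after the genes were seen, was present in 20.4% against 13.5%; TTGGCGC after an A also reads as a CCAAT box on the other strand. A match is a description of letters, not of a bound factor.

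The libraries held 17.9 to 31.2 M counts. Pdcd10 itself (ENSMUSG00000027835), the deleted gene, stood at 41.2, 45.04, 40.3 and 30.6 CPM (counts scaled by library size) in the normoxia flox libraries and 19.97, 19.9, 16.3, 20.1 and 16.7 CPM in the normoxia KO libraries. After hypoxia the readings were 37.7, 48.99, 44.4 and 60.9 CPM in flox and 22.1, 21.6, 25.3, 18.2 and 19.3 CPM in KO. KO and flox did not overlap in either condition, and the interaction of Pdcd10 was -0.09 ± 0.20 (95% interval -0.51 to 0.32), so that no difference in its loss between the conditions was detected. Markers of endothelium were high in every library, with Cdh5, the vascular endothelial cadherin, between 821 and 1264 CPM. Normoxia flox 4 and normoxia KO 4 carried neuronal RNA (Syt1 at 838 and 471 CPM, against at most 8.68 CPM elsewhere). Y-linked transcripts without Xist, the RNA of the silenced X chromosome, marked all 4 hypoxia flox libraries; Xist without Y-linked transcripts marked 4 of the 5 hypoxia KO libraries. Both were found together in flox 3, flox 4 and KO 4 of normoxia. Sex and genotype can therefore hardly be told apart within hypoxia. In such bulk RNA, more cells of a type and more RNA per cell cannot be told apart either.

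The genes that passed were lowest in normoxia flox and higher in the other groups. All 77 had their lowest mean CPM in normoxia flox; 62 had their highest mean in hypoxia flox, 9 in normoxia KO and 6 in hypoxia KO. The median KO minus flox difference of the 77 genes was 2.17 in normoxia and -0.51 in hypoxia, against -0.02 and -0.0021 over all genes tested. Read the other way, the median hypoxia minus normoxia difference was 3.45 in flox and 0.75 in KO, against -0.03 in both over all genes. These readings are made of the groups that chose the genes, so they describe where the interaction lies and are no further evidence for it. The interactions ran from -4.51 to -0.64, with a median of -2.70 against 0.01 over all genes.

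**Figure D1:**
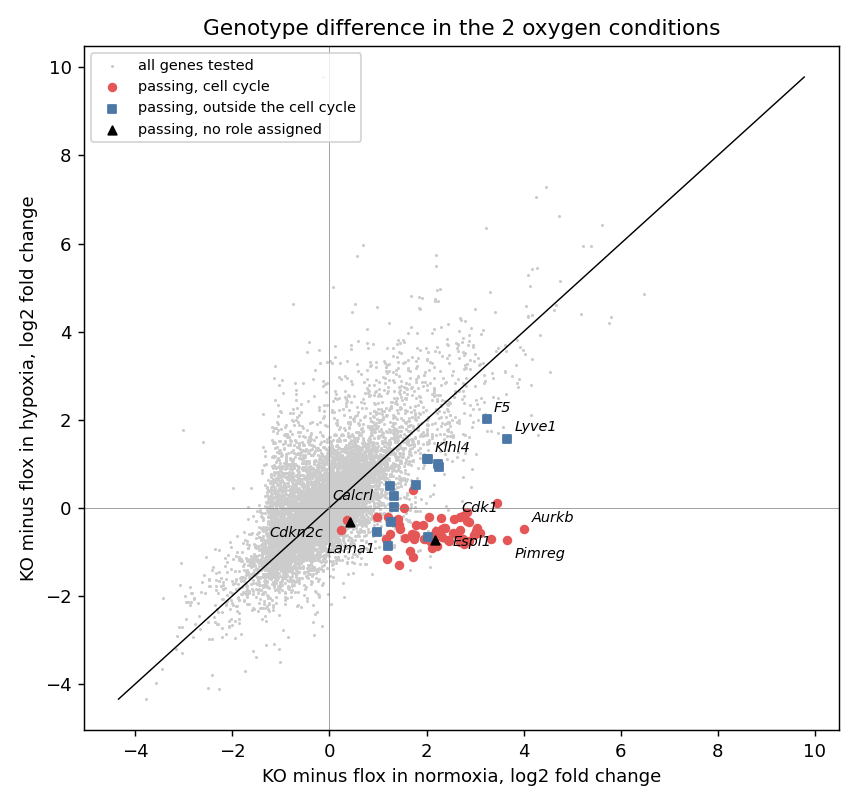
Log2 fold change of KO over flox in normoxia (x axis) and in hypoxia (y axis) for the 17531 genes tested (grey) and the 77 genes that passed the interaction test (coloured by role); the diagonal marks equal differences. The genes that passed lie below the diagonal, most of them between 1 and 4 on the x axis and just under 0 on the y axis.

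The separate tests sort the 77 genes into a few patterns. In normoxia 76 were called higher in KO (9.54% of all genes were), and Cdkn2c was the exception. In hypoxia 9 were called higher in KO (all genes, 11.4%), 11 lower (all genes, 11%) and 57 were not called. Flox animals had 73 of the 77 called higher in hypoxia than in normoxia (all genes, 2.34%). KO animals had 5 called higher in hypoxia (Cdk1, Bub1, Nlrc3, C1qtnf6 and Rhbdl2; all genes, 0.713%), 4 called lower (Klhl4, Tmem45a, Calcrl and Lyve1; all genes, 0.77%) and 68 not called.

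Single libraries show the same order. All normoxia KO libraries lay above all normoxia flox libraries for 72 of the 77 genes (8.59% of all genes), and the exceptions were Pif1, Psrc1, Kif15, Cdca2 and Esco2. All hypoxia flox libraries lay above all normoxia flox libraries for 76 (all genes, 5.36%), and Tmem45a was the exception. Between KO and flox in hypoxia, 52 of the 77 overlapped. In 8 all KO libraries were the higher ones (all genes, 12%), and in 17 all KO libraries were the lower ones (all genes, 10.3%). On the linear scale the double difference of mean CPM was negative for 76 of the 77 genes, and for 71 it was below 0 by more than 2 standard errors. The exception was C1qtnf6, at 0.861 ± 2.97 (SE) CPM.

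**Figure D2:**
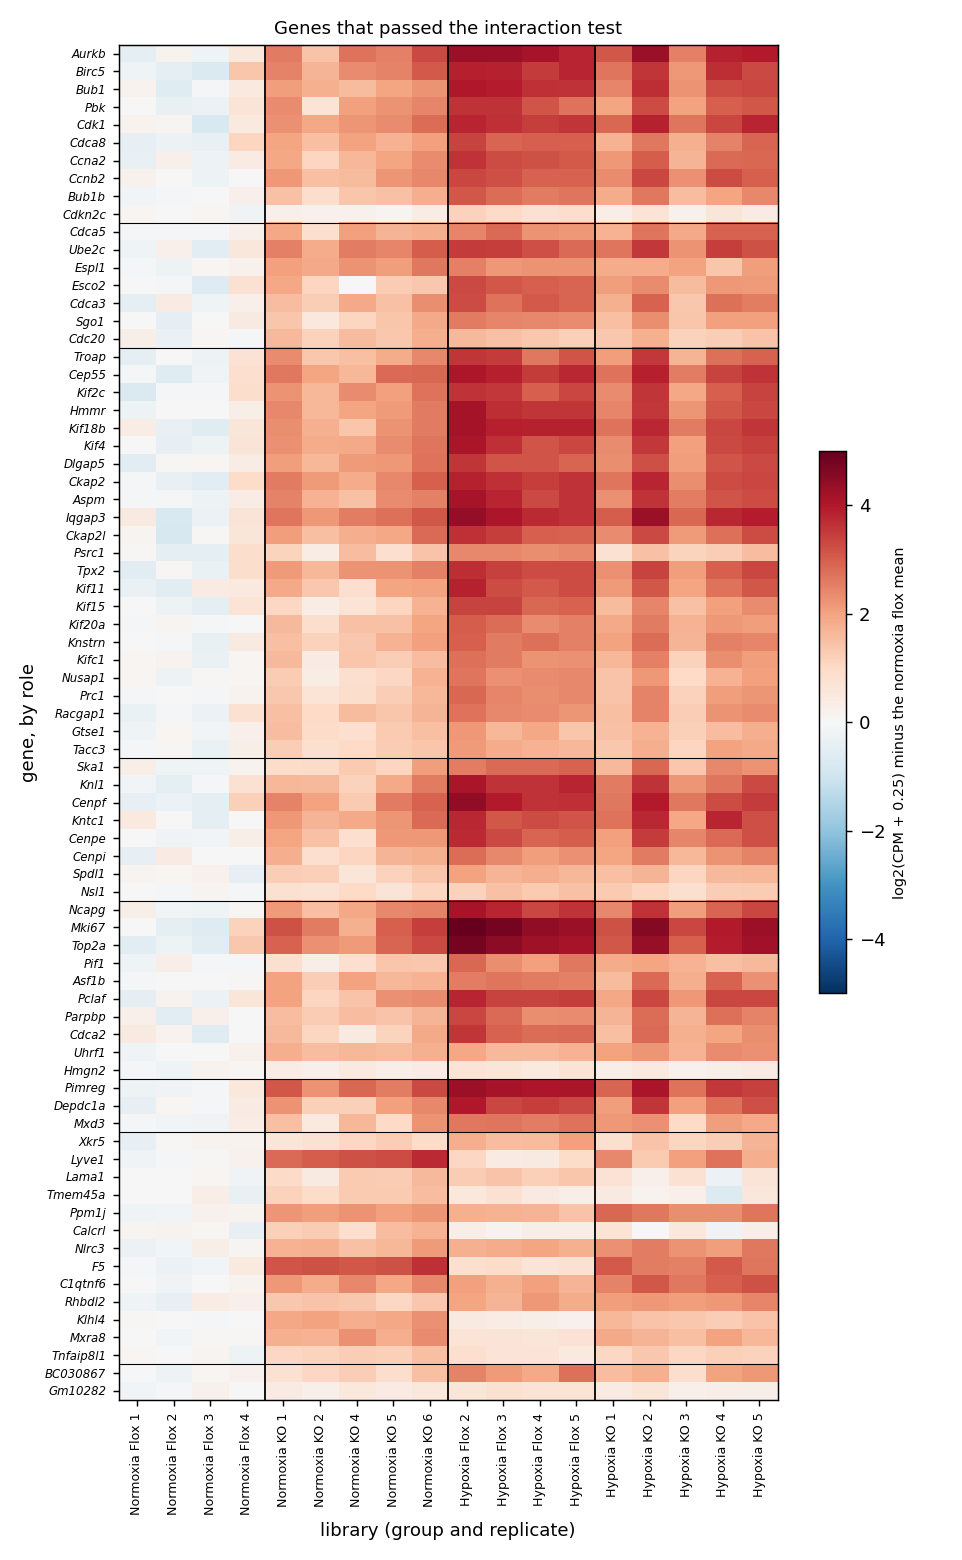
Level of 76 of the 77 genes in each of the 18 libraries, as log2(CPM + 0.25) minus the mean of the normoxia flox libraries, with genes grouped by role. The normoxia flox columns are pale, the hypoxia flox columns are darkest for most cell cycle genes, and hypoxia KO 1 and hypoxia KO 3 are paler than the other hypoxia KO libraries.

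How many genes passed depended on single libraries and on the design of the fit, while their sign did not. Leaving out normoxia flox 1, 2 or 3 left 28, 30 or 38 genes, and leaving out normoxia KO 5 or 6 left 50 or 33. Without hypoxia flox 2, 3, 4 or 5 there were 34, 36, 44 or 44. All 77 genes kept a negative interaction in each of 32 alternative fits in which they were tested. These fits reuse the libraries that chose the genes, so the kept sign is no further evidence for the interaction. Without each of the 18 libraries in turn 27 passed, 23 of them cell cycle genes. With the sex signal as a covariate 58 of the 77 passed, with an immediate early gene score, a measure of the response to dissociation, 73 did, and with both 50 did. Without the 3 normoxia libraries of mixed sex signal 43 of the 77 passed. Blocking on replicate number left 3 (Espl1, Pimreg and Klhl4), and nesting the block in oxygen left none. Same-numbered flox and KO libraries deviated together in all 3 normoxia pairs but not in all hypoxia pairs. Some differently numbered normoxia libraries also did, such as flox 3 and KO 6, and others deviated apart. Whether the numbers mark shared animals or days is therefore unknown.

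The kinases, cyclins and checkpoint proteins of mitosis numbered 10, with a median interaction of -2.76. They were Cdk1, its partners Ccnb2 (cyclin B2) and Ccna2 (cyclin A2), the chromosomal passenger proteins Aurkb, Birc5 and Cdca8, the checkpoint proteins Bub1 and Bub1b, the kinase Pbk, and Cdkn2c, an inhibitor of the kinases that act earlier in the cycle. Cdk1 (ENSMUSG00000019942), whose promoter is printed above, stood at 0.992, 0.937, 0.391 and 1.26 CPM across normoxia flox 1 to 4 and at 5.04, 3.90, 4.75, 5.43 and 7.33 CPM in normoxia KO 1, 2, 4, 5 and 6. In hypoxia it stood at 15.3, 13.5, 11.8 and 12.6 CPM in flox 2 to 5 and 7.65, 15.6, 6.83, 10.8 and 15.05 CPM in KO 1 to 5. The normoxia groups did not overlap, and in hypoxia the flox range lay inside the KO range. Cdk1 rose with Pdcd10 loss in normoxia by 2.56 ± 0.32 (log2, SE), its difference in hypoxia was -0.25 ± 0.26, and the interaction was -2.81 ± 0.41 (95% interval -3.68 to -1.94, adjusted p = 0.00545).

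The largest interaction of all was that of Aurkb, the Aurora B kinase that corrects chromosome attachment, at -4.51 ± 0.75 (adjusted p = 0.00953). It rests on few reads in normoxia flox, where Aurkb stood at 0, 0.141, 0.0434 and 0.245 CPM, against 1.83, 0.673, 2.04, 1.75 and 3.14 CPM in normoxia KO. Hypoxia flox had 6.71, 6.39, 5.79 and 4.56 CPM and hypoxia KO 2.75, 6.57, 1.73, 4.70 and 5.15 CPM, so the hypoxia groups overlapped. Among the 77 genes, 42 had a mean under 1 CPM across normoxia flox and 30 a mean under 0.5 CPM, and their fold changes carry that imprecision. Bub1b, which delays anaphase until chromosomes are attached, was among the genes with opposite calls. In normoxia it read 1.30, 1.36, 1.48 and 1.79 CPM in flox and 4.48, 2.96, 4.20, 4.54 and 5.77 CPM in KO, and it rose with Pdcd10 loss by 1.56 ± 0.25. In hypoxia it stood at 14.7, 11.7, 10.3 and 10.9 CPM in flox and 6.03, 10.6, 4.74, 6.59 and 8.77 CPM in KO, overlapping in 1 KO library, and it fell with Pdcd10 loss by 0.70 ± 0.21. Its interaction was -2.26 ± 0.32 (adjusted p = 0.00545).

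Cdkn2c differed from the rest in that its normoxia difference did not pass, at 0.25 ± 0.11. Under hypoxia the flox libraries read 16.3, 14.4, 12.1 and 13.5 CPM and the KO libraries 9.16, 11.5, 8.34, 11.1 and 9.49 CPM, without overlap, and Cdkn2c was called lower in KO at -0.50 ± 0.11. Its interaction of -0.75 ± 0.16 was close to the threshold (adjusted p = 0.0499) and it passed in 2 of the 18 fits that leave out a library.

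The proteins that part sister chromatids numbered 7, with a median interaction of -2.84. They include separase (Espl1), which cuts the cohesin ring, its guardian shugoshin (Sgo1), the cohesin regulators Esco2 and Cdca5, and the activator Cdc20 and the ubiquitin-conjugating enzyme Ube2c of the anaphase-promoting complex, of which Cdca3 is a substrate. Espl1 (ENSMUSG00000058290) had the smallest adjusted p of all genes. It read 1.20, 1.03, 1.39 and 1.51 CPM in the normoxia flox libraries and 6.11, 5.38, 7.005, 6.18 and 9.10 CPM in the normoxia KO libraries, and 8.42, 6.66, 7.03 and 6.91 CPM in hypoxia flox and 5.28, 5.28, 5.88, 3.73 and 6.22 CPM in hypoxia KO. KO lay above flox in normoxia and below it in hypoxia, without overlap in either. The difference was 2.39 ± 0.19 in normoxia and -0.46 ± 0.17 in hypoxia, where it did not pass (adjusted p = 0.0613), and the interaction was -2.85 ± 0.26 (95% interval -3.39 to -2.31, adjusted p = 8.77e-05).

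Cdc20 had nearly the same level in 3 of the 4 groups. It stood at 7.31, 4.59, 6.29 and 5.59 CPM across normoxia flox, and at 18.8, 13.5, 17.9, 15.4 and 21.1 CPM in normoxia KO. Hypoxia flox had 18.7, 16.6, 15.5 and 13.8 CPM and hypoxia KO 15.4, 20.9, 13.4, 14.2 and 16.1 CPM. Only the normoxia flox libraries stood apart, below every other library. Its difference was 1.55 ± 0.17 in normoxia and -0.02 ± 0.16 in hypoxia, and its interaction -1.56 ± 0.23 (adjusted p = 0.00545).

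Spindle proteins, motors and proteins of cytokinesis were the most numerous, 23 genes with a median interaction of -2.73. Among them were the kinesins Kif20a, Kif18b, Kif4, Kif11, Kif2c, Kif15 and Kifc1, the spindle assembly factor Tpx2, the microtubule binder Aspm, the midbody proteins Cep55, Prc1 and Racgap1, and Hmmr, a hyaluronan receptor that also binds the spindle. Kif20a, a motor of cytokinesis, stood at 1.25, 1.5, 1.26 and 1.39 CPM across normoxia flox and 4.64, 2.69, 4.20, 4.21 and 6.09 CPM in normoxia KO. After hypoxia the readings were 12.7, 10.7, 8.02 and 9.01 CPM in flox and 5.71, 9.43, 5.01, 6.93 and 6.48 CPM in KO. The normoxia groups were apart and the hypoxia groups overlapped; the interaction was -2.29 ± 0.32 (adjusted p = 0.00474). Hmmr was called in both conditions with opposite signs, at 2.68 ± 0.36 in normoxia and -0.79 ± 0.26 in hypoxia (adjusted p = 0.0381). It stood at 11.9, 8.58, 7.87 and 7.79 CPM in hypoxia flox and at 3.45, 7.60, 2.92, 5.62 and 6.63 CPM in hypoxia KO, without overlap, against 0.313, 0.422, 0.434 and 0.571 CPM across normoxia flox and 3.36, 1.88, 2.42, 2.75 and 3.84 CPM in normoxia KO. Psrc1 and Kif15, a spindle protein and a motor, had the same opposite calls, with interactions of -2.73 ± 0.52 and -2.35 ± 0.46.

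Kinetochore and centromere genes numbered 8, with a median interaction of -2.63: Knl1, Nsl1, Kntc1, Spdl1, Ska1, Cenpe, Cenpf and Cenpi. Ska1, which couples kinetochores to microtubule ends, had the largest of these at -4.05 ± 0.84, with 0.104, 0, 0 and 0.0815 CPM across normoxia flox, where 2 libraries had no count. Knl1, the scaffold of the outer kinetochore, stood at 0.365, 0.234, 0.391 and 0.897 CPM across normoxia flox and 1.94, 1.84, 1.27, 2.31 and 3.84 CPM in normoxia KO. It stood at 11.4, 8.21, 8.12 and 9.31 CPM in hypoxia flox and 3.93, 8.14, 2.87, 4.17 and 6.48 CPM in hypoxia KO, where hypoxia KO 2 reached the flox range. Its interaction was -3.08 ± 0.54 (adjusted p = 0.017).

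Genes of chromosome structure, chromatin and replication numbered 10, with a median interaction of -2.87. Mki67 (ENSMUSG00000031004), which coats mitotic chromosomes and encodes the Ki-67 antigen, stood at 3.60, 2.53, 2.21 and 8.36 CPM across normoxia flox and 35.1, 23.1, 13.1, 30.6 and 42.9 CPM in normoxia KO. In hypoxia it stood at 148, 106, 83.2 and 76.8 CPM in flox and 35.2, 92.9, 38.8, 60.5 and 74.9 CPM in KO, with 1 KO library inside the flox range. Its difference was 2.79 ± 0.45 in normoxia and -0.78 ± 0.40 in hypoxia, and its interaction -3.56 ± 0.60 (adjusted p = 0.013). Top2a, which untangles DNA before chromosomes part, had an interaction of -3.21 ± 0.58, and Ncapg, a condensin subunit, one of -3.58 ± 0.50. Uhrf1, which maintains DNA methylation behind the replication fork, went another way. It read 4.54, 5.16, 5.08 and 6.16 CPM in the normoxia flox libraries and 18.8, 15.8, 17.02, 15.9 and 18.6 CPM in the normoxia KO libraries, and 20.7, 16.6, 16.5 and 17.8 CPM in hypoxia flox and 21.7, 24.8, 18.04, 28.1 and 26.2 CPM in hypoxia KO. KO was called higher in both conditions, by 1.72 ± 0.13 in normoxia and, with overlapping libraries, 0.41 ± 0.12 in hypoxia, so that the interaction of -1.31 ± 0.18 (adjusted p = 0.00474) reflects a smaller rise. Hmgn2, a nucleosome binder, had a small interaction of -0.64 ± 0.12. The gene model Gm10282, given no role, had a similar one of -0.74 ± 0.14. Whether Hmgn2 and Gm10282 share reads was not tested. The other cell cycle genes were Pimreg, a mitotic regulator, at -4.40 ± 0.48, Depdc1a at -3.62 ± 0.67 and Mxd3, a transcription factor of the Myc network, at -2.88 ± 0.56.

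**Figure D3:**
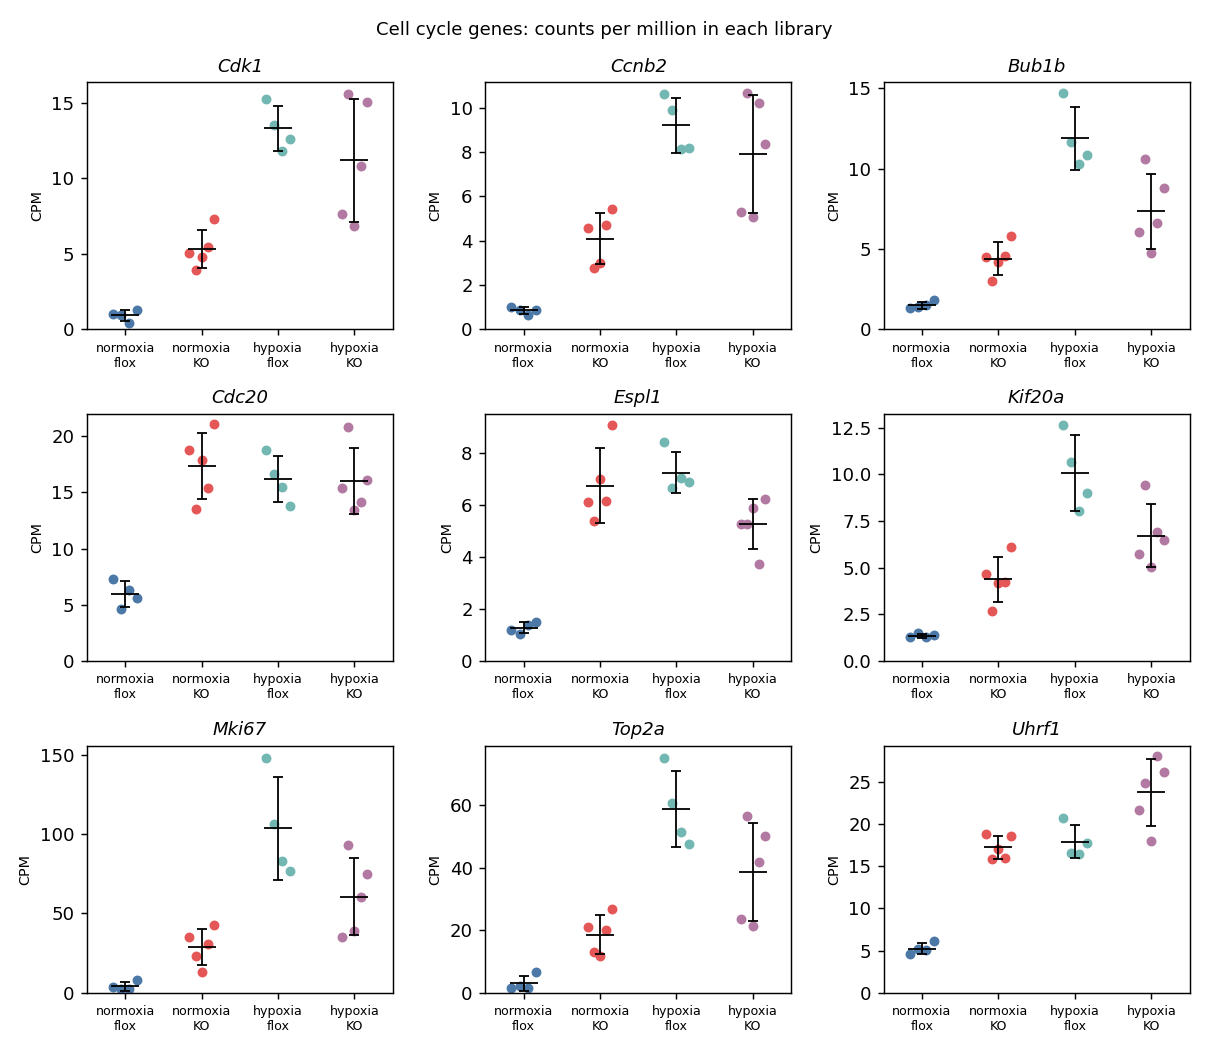
CPM in every library (points) with group mean and SD (bars) for 9 cell cycle genes; n is 4 flox and 5 KO libraries in each oxygen condition. In each panel the normoxia flox points are lowest, and for Cdc20, Espl1 and Uhrf1 the normoxia KO points reach the hypoxia flox level.

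The proliferation list held genes of mitosis and genes that act before it. Of its 33 tested members 18 passed (all genes, 0.439%), all negative, 31 had a value below 0, and the median was -1.88 against 0.01 over all genes. The list was drawn up with earlier results of these data known. Among the 15 that did not pass, Ccnb1, the cyclin B1 gene, missed the threshold at -2.49 ± 0.53 (adjusted p = 0.05001). The replication helicase genes were closer to 0, at -0.66 ± 0.28 for Mcm5, -0.32 ± 0.20 for Mcm2, -0.30 ± 0.13 for Mcm6, -0.19 ± 0.20 for Mcm3 and 0.04 ± 0.19 for Mcm4. The 95% interval of Mcm4 was -0.35 to 0.44 and that of Mcm3 was -0.62 to 0.24, which leave out values as low as the list median. Whether genes that act before mitosis differ as a class from mitotic ones was not tested, and among the genes that passed, the replication-linked Pclaf, at -2.83 ± 0.57, and Asf1b, at -2.91 ± 0.49, had values like those of mitotic genes. For Ccne1, a cyclin of entry into replication, the interval of -1.87 to 1.70 reached nearly to the list median and was too wide to say. That of Pcna, the replication clamp, was also wide, at -1.16 to 1.32, though it left out the list median. The mean log2 CPM of the list ran from 1.06 to 1.70 in normoxia flox, from 2.46 to 3.16 in normoxia KO, from 3.64 to 4.14 in hypoxia flox and from 2.95 to 3.92 in hypoxia KO. The first 3 groups did not overlap with each other.

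Markers of cell types were set beside the cell cycle genes. The summed CPM of 16 endothelial markers was 20805 to 31802 in normoxia flox and 25407 to 30759 in hypoxia flox, the groups with the lowest and the highest mitotic genes. Over the same groups pericyte markers summed to 417 to 1390 and 230 to 1147 CPM, oligodendrocyte lineage markers to 960 to 5545 and 667 to 2611 CPM, microglia and macrophage markers to 29.3 to 233 and 26.4 to 49.1 CPM, and lymphocyte markers to 5.95 to 24.1 and 6.07 to 24.5 CPM. The normoxia flox ranges include a library with neuronal RNA, which can widen them and make overlap more likely. None of these ranges was higher in hypoxia flox than in normoxia flox without overlap. Among the other marker lists only that of erythrocytes was, at 1383 to 2759 CPM in normoxia flox and 3568 to 4862 CPM in hypoxia flox. It summed to 1179 to 5057 CPM in normoxia KO and 2633 to 8073 CPM in hypoxia KO. Between KO and flox, endothelial markers overlapped, at 24970 to 29171 CPM in normoxia KO and 24541 to 27652 CPM in hypoxia KO. Pericyte markers were higher in hypoxia KO than in hypoxia flox without overlap, at 1337 to 2322 CPM. In normoxia KO they overlapped flox, at 799 to 1452 CPM. Smooth muscle markers were lower in KO without overlap in both conditions, at 298 to 338 against 650 to 1162 CPM in normoxia. Which cells held the mitotic transcripts was not tested, nor was the part of cell composition in the interaction.

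The 14 genes outside the cell cycle had a median interaction of -1.28, against -2.83 for the 61 cell cycle genes. All 14 were called higher in KO in normoxia. In hypoxia 8 were also called higher in KO (Ppm1j, Klhl4, Nlrc3, C1qtnf6, F5, Tnfaip8l1, Lyve1 and Mxra8), Lama1 was called lower, and the others, Tmem45a, Calcrl, Xkr5 and Rhbdl2 among them, were not called.

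F5, coagulation factor V, was the only one of 17 tested coagulation genes to pass. It read 95.9, 80.2, 89.2 and 138 CPM in the normoxia flox libraries and 878, 904, 859, 888 and 1237 CPM in the normoxia KO libraries. Under hypoxia the flox libraries read 177, 188, 154 and 165 CPM and the KO libraries 829, 586, 567, 823 and 640.0 CPM. All KO libraries lay above all flox libraries in both conditions, and all hypoxia KO libraries lay below all normoxia KO libraries. Its rise was 3.24 ± 0.18 in normoxia and 2.01 ± 0.17 in hypoxia, and the interaction -1.23 ± 0.23 (adjusted p = 0.0245). It passed in 11 of the 18 fits that leave out a library. Without normoxia flox 1, 2 or 3, normoxia KO 6, or hypoxia flox 2, 3 or 5 it did not, with adjusted p values from 0.0535 (without hypoxia flox 5, at -1.24) to 0.0886 (without normoxia flox 2, at -1.13), and with the sex covariate it was -1.18 (adjusted p = 0.0681). Thbd, thrombomodulin, an anticoagulant receptor, rose in KO by 1.40 ± 0.13 and 1.35 ± 0.13, with an interaction of -0.05 ± 0.18 and a 95% interval of -0.42 to 0.33.

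Klhl4, a Kelch-family gene, had a narrow interaction of -0.92 ± 0.14 (95% interval -1.21 to -0.63, adjusted p = 0.00545). It stood at 94.04, 87.97, 86.6 and 89.5 CPM across normoxia flox, 347, 365, 312, 343 and 442 CPM in normoxia KO, 123, 116, 109.7 and 103 CPM in hypoxia flox and 281, 243, 229, 211 and 243 CPM in hypoxia KO. The flox groups differed little (0.34 ± 0.10, not called), and KO fell in hypoxia by 0.58 ± 0.09. Klhl4, Ppm1j, Lama1 and Nlrc3 were the genes of this group that passed without each library in turn.

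Calcrl, the receptor for adrenomedullin and calcitonin gene-related peptide, was the only one of 18 tested vasoactive genes to pass. It read 208, 212, 203 and 144 CPM in the normoxia flox libraries and 432, 459.9, 335, 549 and 631 CPM in the normoxia KO libraries. After hypoxia the readings were 239, 215, 231 and 231 CPM in flox and 305, 187, 272, 169 and 230.1 CPM in KO, where the flox libraries lay inside the KO range. It rose with Pdcd10 loss in normoxia by 1.33 ± 0.19, its difference in hypoxia was 0.02 ± 0.19, and the interaction was -1.31 ± 0.26 (adjusted p = 0.0363). It passed in 4 of the 18 fits that leave out a library; the other adjusted p values there reached 0.121.

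Lama1, the laminin alpha 1 chain, was the only one of 30 tested basement membrane genes to pass, and changed sides. It read 11.7, 11.8, 12.4 and 10.2 CPM in the normoxia flox libraries and 22.5, 16.01, 29.1, 28.3 and 36.3 CPM in the normoxia KO libraries, against 28.2, 31.6, 26.7 and 30.7 CPM in hypoxia flox and 19.1, 13.7, 19.7, 9.40 and 18.3 CPM in hypoxia KO. KO lay above flox in normoxia and below it in hypoxia, without overlap in either. The difference was 1.20 ± 0.22 in normoxia and -0.87 ± 0.21 in hypoxia (adjusted p = 0.00813), and the interaction -2.06 ± 0.30 (adjusted p = 0.00545).

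Ppm1j, a protein phosphatase gene, and Nlrc3, a restrainer of innate immune signalling, rose with Pdcd10 loss in both conditions and with hypoxia in flox. Ppm1j read 2.19, 2.30, 2.995 and 2.94 CPM in the normoxia flox libraries and 12.9, 11.9, 13.1, 11.6 and 12.8 CPM in the normoxia KO libraries, and 9.56, 9.08, 8.91 and 7.44 CPM in hypoxia flox and 20.4, 17.5, 13.8, 14.1 and 17.9 CPM in hypoxia KO. The hypoxia KO libraries were the highest, and the interaction of -1.31 ± 0.18 (adjusted p = 0.00474) marks less than the sum of the separate log2 changes. Nlrc3 also had its highest mean in hypoxia KO, with an interaction of -1.25 ± 0.21, and so did C1qtnf6, a secreted protein of the C1q family, at -1.23 ± 0.23. On the linear scale the double difference was -1.84 ± 1.37 (SE) CPM for Ppm1j and -6.61 ± 3.94 CPM for Nlrc3. Both were smaller than 2 standard errors, so the dependence on oxygen of these genes rests on the log2 scale.

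Lyve1, a hyaluronan receptor of lymphatic endothelium and of macrophages, passed narrowly at -2.09 ± 0.43 (adjusted p = 0.0469). It stood at 0.522, 0.562, 0.651 and 0.775 CPM across normoxia flox, 5.91, 6.91, 7.77, 8.15 and 11.4 CPM in normoxia KO, 1.55, 0.912, 0.941 and 1.42 CPM in hypoxia flox and 4.31, 1.94, 3.37, 5.53 and 2.86 CPM in hypoxia KO. It was high in the normoxia KO libraries without overlap with any other group. The microglia and macrophage list, of which it is 1 of 15 tested members, had 13 members above 0 and a median of 2.37, and no other member passed. Some macrophage markers stood apart in the libraries with neuronal RNA. C1qa, a complement gene, reached 22.5 and 10.3 CPM in those of flox and KO, and at most 1.26 CPM in the others. Csf1r did so less, at 48.4 and 26.9 CPM against 24.7 CPM in hypoxia KO 4. The markers of the list summed to 29.3 to 233 CPM in normoxia flox, 48.7 to 153 in normoxia KO, 26.4 to 49.1 in hypoxia flox and 44.4 to 99.9 in hypoxia KO. Their part in the Lyve1 result was not tested. Lyve1 did not pass with the sex covariate or with the immediate early score.

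**Figure D4:**
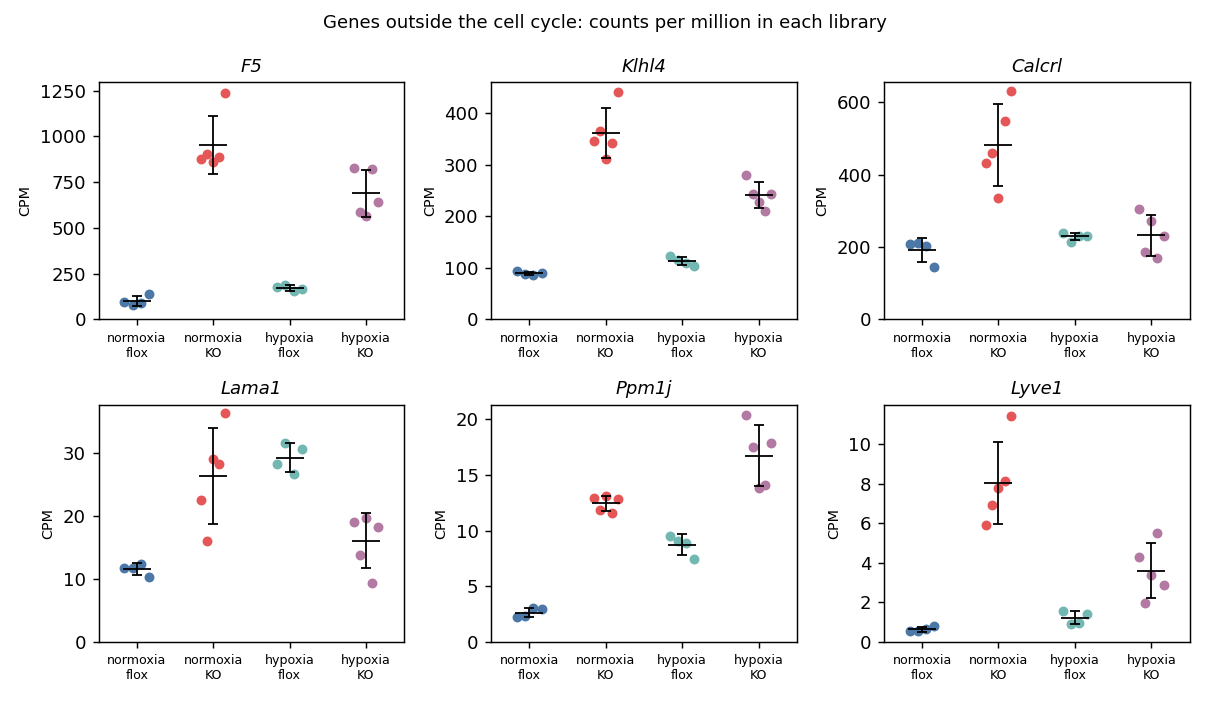
CPM in every library (points) with group mean and SD (bars) for 6 genes outside the cell cycle; n is 4 flox and 5 KO libraries in each oxygen condition. F5, Klhl4, Calcrl and Lyve1 are highest in normoxia KO, Lama1 has its low points in normoxia flox and hypoxia KO, and Ppm1j is highest in hypoxia KO.

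No gene passed with a positive interaction, and this count depended on the tool, on covariates and on single libraries. The positive values nearest the threshold were those of Cmklr1, the chemerin receptor, at 1.00 ± 0.22 (adjusted p = 0.0689), Cspg4, the pericyte and oligodendrocyte precursor proteoglycan NG2, at 1.49 ± 0.34 (adjusted p = 0.0902), and Ccnd2, cyclin D2, at 0.78 ± 0.18 (adjusted p = 0.0904). Cmklr1 stood at 27.2, 36.96, 26.8, 32.1 and 36.4 CPM in hypoxia KO, above every library of the other groups, which ran from 7.89 to 19.1 CPM. Ccnd2 read 155, 152, 141 and 114 CPM in the normoxia flox libraries and 64.2, 62.5, 66.6, 66.1 and 63.4 CPM in the normoxia KO libraries, against 124, 95.3, 116 and 73.5 CPM in hypoxia flox and 81.3, 79.7, 86.5, 68.4 and 87.2 CPM in hypoxia KO. KO was below flox in normoxia without overlap, and the groups overlapped in hypoxia. DESeq2 called 145 genes, the 77 among them, with 125 negative and 20 positive, and Cmklr1, Cspg4 and Ccnd2 were among the positive ones. The largest of the 20 values was that of Xist, at 9.99, and sex differs with genotype in hypoxia. Limma-trend on the deposited RPKM called 71, none positive. Without normoxia flox 4, a library with neuronal RNA, edgeR called 98, of which 8 were positive, again with Cmklr1, Cspg4 and Ccnd2. Leaving out hypoxia flox 2, hypoxia flox 4 or hypoxia KO 1 gave 1 positive gene each, the fits with covariates gave 1 to 3, and 5 passed without the 3 normoxia libraries of mixed sex signal. Pericyte markers as a list had all 13 members above 0, with a median of 0.71; beside Cspg4, their part in its value was not tested.

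Beyond the cell cycle, lists fitting the tissue held few genes that passed. Of 45 lists, 5 had a member that did: proliferation with 18, and coagulation, basement membrane, vasoactive mediators and microglia and macrophage markers with 1 each. Over all genes 0.439% passed, so a list of this size without a passing member is ordinary and says little about the list. None of the 38 tested targets of the hypoxia-inducible factor passed, and their median was 0.07. The inflammation and leukocyte adhesion list had none of 28 and a median of 0.12. MHC class II genes had none of 8, all above 0, with a median of 1.64; the largest, Ctss, a lysosomal protease, was at 3.80 ± 1.52 (adjusted p = 0.756), and Cd74, the invariant chain, was at 1.34 ± 1.10. MHC class I genes had none of 15, all above 0, with a median of 0.41, interferon-stimulated genes none of 33 with a median of 0.24, and immediate early genes none of 24 with a median of 0.54.

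**Figure D5:**
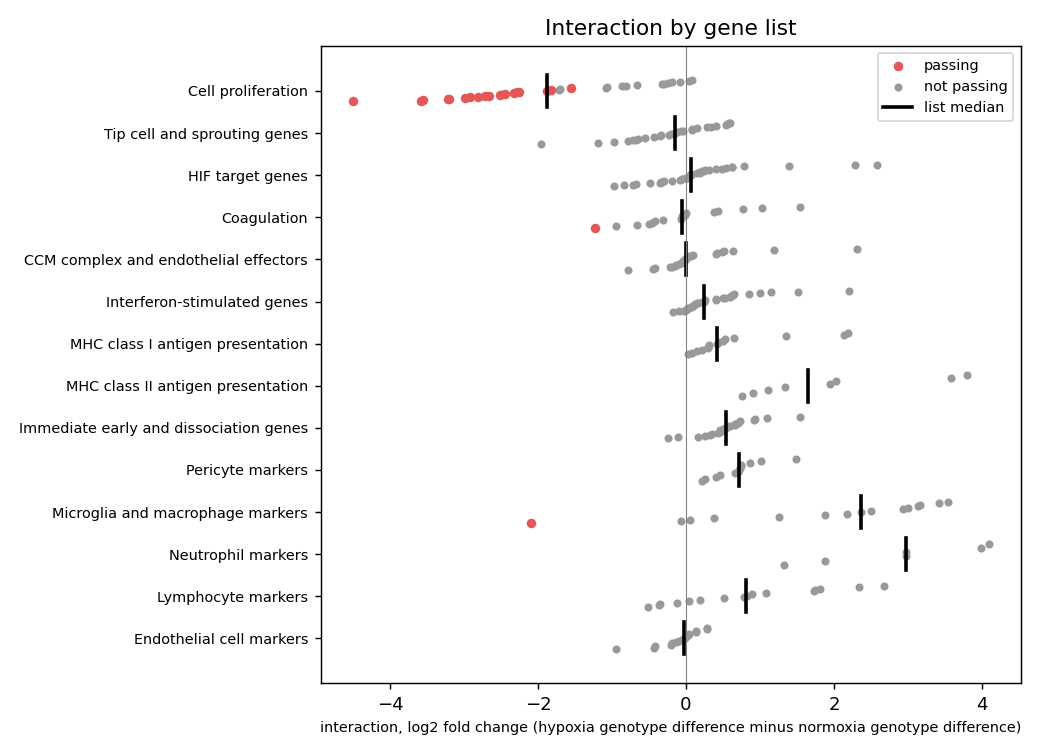
Interaction (log2, x axis) of the tested members of 14 gene lists (points; red passed, grey did not) with the list median (black bar). The proliferation list lies to the left with 18 red points, and the MHC class II, neutrophil and macrophage lists lie to the right with wide spread and no positive red point.

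Genes often followed in this disease were read the same way. The flow-responsive factor Klf2 had an interaction of 0.51 ± 0.48 (95% interval -0.51 to 1.53) and Klf4 one of 0.64 ± 0.85 (-1.17 to 2.45), both wide. Slc2a1, the glucose transporter of the barrier, was at 0.02 ± 0.19 (-0.39 to 0.42). Vegfa was at 0.40 ± 0.59 (-0.85 to 1.66), Cx3cl1, a chemokine, at 0.78 ± 0.38 (-0.03 to 1.59), and Il1b, an inflammatory cytokine, at 2.87 ± 1.51 (-0.35 to 6.08). None passed in any of the 32 alternative fits, and only the intervals of Pdcd10, Thbd and Slc2a1 among these 8 genes lay within -1 to 1.

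For most genes the data bound the dependence on oxygen without detecting it. The 95% interval of the interaction lay within -1 to 1 for 9988 of the 17531 genes (57%). Among the 4781 genes with a genotype call in either condition this held for 2843 (59.5%), and 77 of them passed the interaction test. Genes called by genotype in both conditions numbered 2040, of which 2029 had the same sign. Another 865 were called in normoxia only, and 57 of these passed the interaction test; of 1876 called in hypoxia only, 1 did, Cdkn2c. A call in 1 condition and not in the other was thus seldom matched by a detectable difference between them at this depth and number of libraries.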

How the data were processed

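RNA from brain endothelial cell preparations of mice was sequenced in 18 libraries made with a stranded mRNA kit, per the labels' protocols. The authors deposited whole-number read counts per Ensembl gene and RPKM values (reads scaled by gene length and library size); HISAT2, edgeR and the build GRCm39 are named in the submitters' processing notes, and the counter, its strand setting and versions are not given in the sources used here. Groups came from the sample titles. Testing of the counts used edgeR 4.0.16 under R 4.3.3, with genes kept by filterByExpr with groups given, TMM scaling, 1 coefficient per group, a robust quasi-likelihood F test of the double difference over all 18 libraries, and Benjamini-Hochberg adjustment over the 17531 genes, at 0.05. Each standard error was taken as the size of the log2 value over the root of its F statistic, and 95% intervals use the fit's degrees of freedom. CPM use TMM-scaled totals (17.9 to 31.2 M counts per library), and values are listed by replicate number, which has no order. Symbols came from GENCODE M21 and promoters from RefSeq.

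The members, lists and tests were chosen with earlier results of these data known, and roles were assigned by hand to the genes that passed. Named genes were Pdcd10, Klf2, Klf4, Thbd, Vegfa, Slc2a1, Cx3cl1 and Il1b; the 15 highest and 15 lowest interactions of passing genes whose average log2 CPM reached 0; every passing list member; and up to 6 genes called with opposite signs by genotype. Other genes were named after their values were seen. Alternatives were RLE scaling, no filter or a stricter one (1 CPM in 4 libraries), the legacy fit, DESeq2 1.42.0, limma-trend (limma 3.58.1) on the deposited log2 of RPKM with 0.1 added, replicate blocks, covariates for sex signal, non-endothelial markers and immediate early genes, and leaving out libraries. The linear double difference of mean CPM was added after the data were seen. The fit was first tried on simulated counts in which 200 genes were changed, in hypoxia KO only. That simulation did not set normoxia flox apart as the lowest group, which it was for the genes that passed. One gene that passed is not reported by name here. No pair of libraries held identical values.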

Additional observations from a re-analysis of the deposited data

Results flagged for a closer look

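Levels of 46 named genes that passed, and the proliferation score, were searched for a library far from the rest of its group, by the gap to its neighbour divided by the range of log2(CPM + 1) in the group (Dixon's ratio at its 95% limit). Chance alone gives about 1 such group in 20, and 9 of 188 were found. Normoxia flox 4, a library with neuronal RNA, was the highest of its group for Cdca5 (0.885), Top2a (0.855), Cenpf (0.902) and Birc5 (0.834), and the lowest for Calcrl (0.885). Hypoxia flox 2 was the highest for Kif18b (0.845). Normoxia KO 6 was the highest for F5 (0.86). For Rhbdl2, normoxia KO 5 was the lowest (0.813) and hypoxia KO 5 the highest (0.721). The genotype difference itself differed between oxygen conditions for 77 genes, by the interaction test.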

How the results depend on the processing

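Of 32 alternatives, 12 moved the count of 77 genes by more than 1.5 times. DESeq2 called 145 and edgeR with the replicate number as a block called 3 (Espl1, Pimreg and Klhl4), or 0 with the block nested in oxygen. Same-numbered flox and KO libraries correlated at 0.579, 0.294 and 0.847 in normoxia and at 0.158, 0.0403, -0.183 and -0.339 in hypoxia. These were over 0.1 in every normoxia pair but not in every hypoxia pair. Differently numbered normoxia pairs ran from -0.674 (flox 2 with KO 4) to 0.707 (flox 3 with KO 6). The 0.847 belongs to the 2 libraries with neuronal RNA. The reported fit has no block. Leaving out 1 library gave 28 to 98 genes. The other alternatives gave 55 to 104 genes. No interaction of a named gene that passed was reversed, though the same libraries chose these genes. The count of genes with an interval within -1 to 1 stayed between 9119 and 10636. Positive calls, 0 in the reported fit, were 20 with DESeq2, 8 without the 2 libraries with neuron markers and 1 to 5 in 8 other alternatives; 8 was also the count without normoxia flox 4. Low counts in normoxia flox limit the precision of the fold changes, and sex differs with genotype in hypoxia.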
